A study of Caenorhabditis elegans with 2 samples.

Results

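The nuclear genes that encode the respiratory chain and the ATP synthase of the mitochondrion were examined for sites of LIR-1 in young adult Caenorhabditis elegans. Members were the nuclear protein-coding genes whose names begin with nuo-, sdha-, sdhb-, sdhd-, ucr-, cyc-, cox-, atp-, asb- or asg- followed by a digit, with gas-1, mev-1 and isp-1 added. The rule took 45 of 19973 nuclear protein-coding genes. Complex I had 7 members, complex II 5, complex III 7, complex IV 7 and complex V 9, with 2 genes for cytochrome c and 8 for assembly factors of complex IV. The membership rule used names only and no measured value.

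LIR-1 has zinc fingers and resembles LIN-26. Chromatin that came down with it was mapped by chromatin immunoprecipitation and sequencing (ChIP-seq) in strain RW12318, whose lir-1 gene on chromosome II carries a TY1::EGFP::3xFLAG insertion made with CRISPR. There was 1 group, of 2 biological replicates: whole worms taken as young adults (63 hours), synchronised by bleaching and L1 starvation, with sonicated chromatin and an antibody against GFP. There was no second condition, and untagged animals were not analysed here, so a site marks reproducible precipitation only. Errors are the spread of the 2 replicates. Whole animals mix all tissues, so a peak does not say in which cells it arose. Read totals are not part of the peak lists, and the depth is unknown.

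In mitochondria of worms and other animals, complexes I to IV pass electrons to oxygen, with cytochrome c as the carrier between complexes III and IV. Complexes I, III and IV pump protons across the inner membrane, and the ATP synthase, complex V, uses the gradient to make ATP. Most subunits are encoded in the nucleus and a few on the mitochondrial chromosome. Several of these genes are well known in the worm for their effects on lifespan or on sensitivity to oxygen and anaesthetics, among them isp-1, nuo-6, mev-1, gas-1 and atp-2.

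LIR-1 sites lay at 8 of the 45 members, 17.8% (95% interval 8.0 to 32.1), against 4.42% of all nuclear protein-coding genes (883 of 19973). A gene had a site when a summit of the authors' conservative set, 1209 sites in all, fell from 1000 bp upstream to 200 bp downstream of its annotated 5′ end. The 8 genes were cox-5A, cox-5B and cox-6A of complex IV, atp-1, atp-3 and atp-5 of complex V, mev-1 of complex II and ucr-2.2 of complex III. None of the 7 members of complex I, the 2 cytochrome c genes or the 8 assembly factors had a site. At the share of all genes, most groups of these sizes would have none. Without the assembly factors the share was 8 of 37, 21.6%. Entry into the set rested on the irreproducible discovery rate (IDR), which runs from 0 to 1 and is low for peaks that rank high in both libraries; the conservative set reached up to an IDR of 0.00997. Intervals are exact binomial (Clopper-Pearson) and treat genes as independent, which neighbouring genes are not.

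The gene cox-5B had 2 sites, so the members held 9 distinct sites. Their signal, the peak score written by the authors' caller for both libraries together, ran from 56.7 to 230.4 with a median of 96.2. For the 664 sites in any protein-coding promoter window the median was 92.5, so the signal of the member sites was near that of promoter sites in general. All 9 sites were also in the other peak set deposited for the series, which comes from the same libraries and is no separate measurement. In the lists called on single libraries, 6 members had a site in replicate 1's list (3.50% of all genes did) and 4 in replicate 2's (2.39%). The genes cox-5A, cox-5B and atp-1 were the 3 members in both lists, against 1.92% of all genes.

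How many members counted as having a site varied with the rule, and so did the share of all genes. The stronger 50% of sites left 6 members, against 2.71% of all genes, without atp-3 and ucr-2.2. A window of 500 bp upstream to 100 bp downstream left 7 (3.45%), without cox-6A, and 1 of 1500 bp to 500 bp gave 10 (5.29%), with cyc-2.1 and ucr-11. Giving each site to its nearest protein-coding 5′ end alone left 7 (3.21%), without atp-5. Noncoding genes did not compete in that count, so cox-6A stayed although the noncoding gene F54D8.7 started nearer to its summit.

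**Figure D1:**
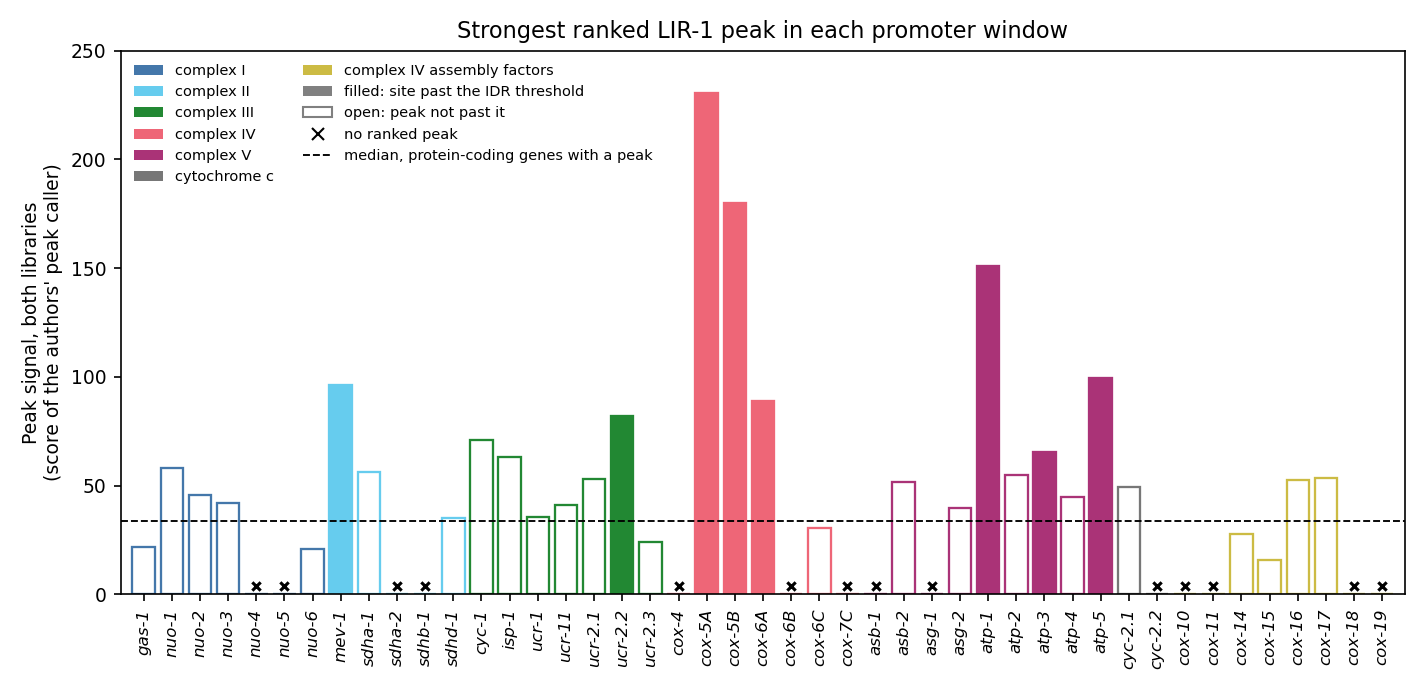
Signal of the strongest ranked LIR-1 peak (y axis, score of the authors' peak caller, both libraries together) in the promoter window of each of the 45 members (x axis), coloured by complex. Filled bars are sites of the conservative set, open bars are peaks that missed its threshold, crosses are members with no ranked peak, and the dashed line is the median of 33.6 over the 7703 protein-coding genes with a peak. The genes cox-5A, cox-5B and atp-1 stand highest, and 14 members have no peak.

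The DNA under 5 of the member sites and under a further site near cox-6B is shown so that the summits can be compared by eye. Each line holds the summit and the 50 bases to either side of it, 5′ to 3′ on the strand of the gene, read from the RefSeq genome of the same assembly as ce11. Capitals mark, on either strand, the motif GAGACGC and the 6-mers that were common under LIR-1 sites at large, of which the word ACGCGC, the word GACGCA and the word GAGAGA occur here. The stretches are chrIII:12905141-12905241 (plus strand) for cox-5A, chrV:11124099-11124199 (minus) for atp-5, chrIII:10334115-10334215 (plus) for mev-1, chrIII:5080862-5080962 (plus) for cox-6A, chrX:15173634-15173734 (plus) for ucr-2.2 and chrIII:2786000-2786100 (plus) for cox-6B.
cox-5A: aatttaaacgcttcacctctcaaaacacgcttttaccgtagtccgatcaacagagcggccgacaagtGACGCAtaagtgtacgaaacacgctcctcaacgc
atp-5: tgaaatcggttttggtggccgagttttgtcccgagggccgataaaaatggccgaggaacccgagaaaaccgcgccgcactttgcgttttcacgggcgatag
mev-1: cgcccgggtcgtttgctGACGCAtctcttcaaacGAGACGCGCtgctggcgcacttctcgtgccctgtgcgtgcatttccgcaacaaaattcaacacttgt
cox-6A: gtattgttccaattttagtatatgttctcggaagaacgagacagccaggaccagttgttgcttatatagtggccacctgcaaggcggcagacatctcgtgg
ucr-2.2: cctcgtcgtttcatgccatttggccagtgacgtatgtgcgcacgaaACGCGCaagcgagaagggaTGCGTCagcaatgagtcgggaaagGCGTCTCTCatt
cox-6B: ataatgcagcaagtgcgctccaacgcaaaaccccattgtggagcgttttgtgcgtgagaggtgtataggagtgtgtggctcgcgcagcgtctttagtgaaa
The mev-1 and ucr-2.2 windows each hold the motif GAGACGC, the word ACGCGC and the word GACGCA. The cox-5A window holds GACGCA alone, and the windows of atp-5, cox-6A and cox-6B hold none of these words.

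Complex IV, cytochrome c oxidase, had a site at 3 of its 7 members, 42.9% (95% interval 9.90 to 81.6). The gene cox-5A (WBGene00012553), which encodes a nuclear subunit of the oxidase, had the strongest site of any member. It lay 300 bp upstream of the gene at chrIII:12905130-12905264, with a signal of 230.4, the 42nd highest of the 1209. The signal was 112 in replicate 1 and 124 in replicate 2, 118 ± 8.28 (mean ± SD, n = 2). No other gene of any class had this summit in its window, and in its sequence above the GACGCA lies to the right of the centre.

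The gene cox-5B (WBGene00000371), another nuclear subunit, followed at 180.1, with a summit 26 bp upstream of the gene at chrI:9788559-9788838. Its signal was 88.1 in replicate 1 and 84.4 in replicate 2, 86.2 ± 2.58 (n = 2), so the replicates differed little. Its other site, 730 bp upstream, was the weakest of the 9 at 56.7, with 29.3 in replicate 1 and no peak over the summit in replicate 2's ranked list. That summit lay closer to tba-1, an alpha-tubulin gene on the opposite strand, at 371 bp upstream of it. The gene cox-6A (WBGene00006519) had a site 812 bp upstream of its annotated 5′ end, at chrIII:5080772-5081051, with 88.7. The replicates gave 49.8 and 46.9, 48.3 ± 2.06 (n = 2), and the summit lay 14 bp upstream of F54D8.7, a small nuclear RNA gene on the opposite strand. The cox-6A site is therefore nearer to a noncoding gene than to the member that counts it.

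The gene cox-6B, a further subunit, had no site at its annotated 5′ end, but that end is unusual. The gene runs from 2699663 to 2786859 on chromosome III because 1 of its transcripts begins with a 22-base exon that lies 86515 bp before the next exon. Its other transcript starts at 2786202, and a site lay 152 bp upstream of that start, at chrIII:2785910-2786189. The signal was 151, like that of the atp-1 site, with 77.1 in replicate 1 and 71.6 in replicate 2. The nearest protein-coding 5′ end was that of Y71H2AM.20, 102 bp away, so the neighbours share the site. Counted from any annotated transcript start, complex IV had 4 of 7 members with a site and the whole group 9 of 45 (20%), against 4.75% of all genes. The gene cox-6B was singled out after its values were seen.

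The rest of complex IV showed little. The gene cox-6C had the strongest peak of the oxidase genes without a site, 30.4 with an IDR of 0.712, at 136 bp downstream of its 5′ end. It was seen in replicate 1 (18.4) and had no peak over the summit in replicate 2. The genes cox-4 and cox-7C had no ranked peak in their windows. Within 1 complex the members thus ran from the strongest site of the group to no peak at all.

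The 8 assembly factors supply haem and copper or help the oxidase fold and join its subunits. At the 4.42% of all genes, most sets of 8 genes would have no site, and these factors had none, 0% (95% interval 0 to 36.9). The gene cox-17, the copper chaperone, had their strongest peak, 53 with an IDR of 0.287, near the far end of the window at 994 bp upstream. It gave 18.3 in replicate 1 and 33.3 in replicate 2. The genes cox-10, cox-11, cox-18 and cox-19 had no ranked peak, and cox-14 and cox-15 had peaks of 27.9 and 15.8 with an IDR of 0.866 each. Among the 8, only cox-16 had an IDR under 0.1, with a signal of 52.5 at 362 bp upstream, 23.7 in replicate 1 and 28.2 in replicate 2. That summit was nearer to syp-2 on the opposite strand.

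Complex V, the ATP synthase, had a site at 3 of 9 members, 33.3% (95% interval 7.49 to 70.1). The gene atp-1 (WBGene00010419), the alpha subunit of the catalytic head, had a signal of 151 at chrI:12652135-12652414, with the summit 2 bp from its 5′ end. The replicates gave 76.7 and 74.5, 75.6 ± 1.55 (n = 2), the smallest spread of the 8 sites measured in both. The summit also lay 188 bp upstream of mcrs-1 on the opposite strand. The gene atp-5 (WBGene00007385), a subunit of the peripheral stalk, had 99.6 at chrV:11124009-11124288, 282 bp upstream. Its replicates gave 52.4 and 45.9, 49.1 ± 4.6 (n = 2), and replicate 1's own list alone called it. This summit lay 37 bp upstream of lmtr-3, its divergent neighbour, and thus nearer to that gene.

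The gene atp-3 (WBGene00000230), the stalk subunit known in mammals as the oligomycin sensitivity conferring protein, had the lowest signal of the 8 members with a site, 65.2 at chrI:5429780-5430059, counting the stronger site of cox-5B. The summit was 12 bp upstream, and the replicates gave 38.6 and 32.1, 35.4 ± 4.61 (n = 2). Neither replicate's own list held it, and the divergent gene F27C1.2 started 237 bp from the summit. The noncoding RNA genes F27C1.17 and F27C1.16 started 12 and 134 bp from it. The gene atp-2, the beta subunit that pairs with ATP-1 in the catalytic head, missed the threshold with 54.8 and an IDR of 0.0283, at 273 bp upstream. The divergent genes C34E10.10 and C34E10.12 started slightly nearer to this summit, at 260 and 263 bp. The atp-2 peak gave 25.0 in replicate 1 and 31.5 in replicate 2, both below every value of the 8 sites seen in both libraries. The peaks in the windows of the alpha and beta subunit genes, both shared with neighbours, thus differed in signal by more than the replicates of either differed.

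The other complex V genes showed weaker peaks or none. The asb- genes encode the b subunit of the stalk and the asg- genes the small g subunit, in pairs of paralogs. The genes asb-1 and asg-1 had no ranked peak, whereas their paralogs asb-2 and asg-2 had peaks of 51.8 (IDR 0.0921) and 39.6 (IDR 0.759). The asb-2 peak, at 256 bp upstream, gave 29.8 in replicate 1 and 23.4 in replicate 2, and no other gene shared it. The gene atp-4 had 44.6 at 139 bp downstream of its 5′ end, with an IDR of 0.758.

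Complex II, succinate dehydrogenase, had a site at mev-1 alone of its 5 members, 20% (95% interval 0.505 to 71.6). The gene mev-1 (WBGene00003225) encodes the cytochrome b subunit that anchors the enzyme in the membrane, and its site lay 112 bp upstream at chrIII:10334025-10334304. The signal was 96.2, with 36.8 in replicate 1 and 58.3 in replicate 2, 47.5 ± 15.2 (n = 2). That was the widest gap between replicates among the member sites, and replicate 2's own list alone called it. The summit lies between mev-1 and jmjd-4, which point away from each other and whose 5′ ends are 259 bp apart. The gene sdha-1, the flavoprotein subunit, had a peak of 56.4 with an IDR of 0.0336 at 262 bp upstream, with 32.4 and 26.0 in the replicates. The noncoding RNA genes D2021.5 and D2021.6 started nearer to that summit, at 60 and 79 bp. The gene sdha-2, the paralog of sdha-1, and sdhb-1, the iron-sulphur subunit, had no ranked peak, and sdhd-1 had 35.0 with an IDR of 0.323.

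Complex III, cytochrome c reductase, had a site at ucr-2.2 alone of 7 members, 14.3% (95% interval 0.361 to 57.9), but all 7 had a ranked peak. The gene ucr-2.2 (WBGene00011679), 1 of 3 paralogs for a core protein, had 82.0 at chrX:15173544-15173823, 220 bp upstream. The replicates gave 39.7 and 35.1, 37.4 ± 3.28 (n = 2), no other window held the summit, and neither replicate's own list called it. Its paralog ucr-2.1 had 53.2 (IDR 0.0659) and ucr-2.3 had 23.8 (IDR 0.702), so the paralogs stood apart. The ucr-2.1 peak, at 287 bp upstream, had 24.7 in replicate 2 and no peak over its summit in replicate 1. It lay 99 bp from the start of nmat-1, nearer than to ucr-2.1. The genes ucr-1, for the other core protein, and ucr-11 had 35.4 (IDR 0.75) and 41.1 (IDR 0.454).

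Another pair of genes in complex III stood just outside the threshold. The gene cyc-1, which encodes cytochrome c1, had the strongest peak of any member without a site, 71.1 with an IDR of 0.0146, at 287 bp upstream. It gave 43.4 in replicate 1, whose own list called it, and 27.1 in replicate 2. The gene isp-1, the Rieske iron-sulphur protein, had 63.3 and an IDR of 0.0105 at 329 bp upstream, with 35.1 and 29.5 in the replicates. The isp-1 peak lay 5 bp from the start of islo-1 on the opposite strand. Just inside the threshold stood atp-3, with an IDR of 0.00475, and the weaker cox-5B site, with 0.00828.

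The cytochrome c genes differed from each other. The gene cyc-2.1 had a peak of 49.3 with an IDR of 0.21 at 311 bp upstream, with 29.8 in replicate 1 and 21.0 in replicate 2, and cyc-2.2 had no ranked peak.

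Complex I, NADH dehydrogenase, had no site among its 7 members, 0% (95% interval 0 to 41.0), against 4.42% of all genes. The gene nuo-1, which encodes the subunit that accepts electrons from NADH, came nearest, with 58.1 and an IDR of 0.0392 at 288 bp upstream. It gave 34.9 in replicate 1 and 25.3 in replicate 2. The peak lay in the stretch shared with rpl-36.A, a ribosomal protein gene that started 345 bp away. Noncoding RNA genes started nearer to this summit than nuo-1 or rpl-36.A, C09H10.11 at 1 bp and C09H10.13 at 52 bp. The gene gas-1, a core subunit, had 21.7 at 127 bp downstream and nuo-6 had 21.0 at 269 bp upstream, each with an IDR of 0.866 and no peak over the summit in either replicate's ranked list. The genes nuo-2 and nuo-3 had 45.6 (IDR 0.453) and 41.8 (IDR 0.259), and nuo-4 and nuo-5 had no ranked peak.

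Most subunits of complex I carry other names in the worm, so the ndu- genes and lpd-5 were counted as well, a choice made after the counts for the nuo- genes were seen. Of these 26 genes 5 had a site, 19.2%, against the same 4.42% of all genes. The 5 were nduc-2 (151, 802 bp upstream), nduf-2.2 (113, 776 bp), ndub-8 (86.7, 148 bp), nduf-11 (82.5, 173 bp) and ndua-8 (75.2, 242 bp). The sites of nduc-2 and nduf-2.2 thus lay beyond the narrow window of 500 bp, and neighbours of these sites were not looked up. The nduc-2 site has the same signal, 151, as the site near cox-6B, and whether they are the same site was not looked up either. With the nuo- genes and gas-1, complex I had 5 of 33, 15.2%. The 7 named members thus had no site, whereas some complex I genes under other names had one. At the 4.42% of all genes, most sets of 7 genes would have none, so the lack of sites there carries little. Across the complexes, all intervals overlapped, and no difference between complexes was tested.

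**Figure D2:**
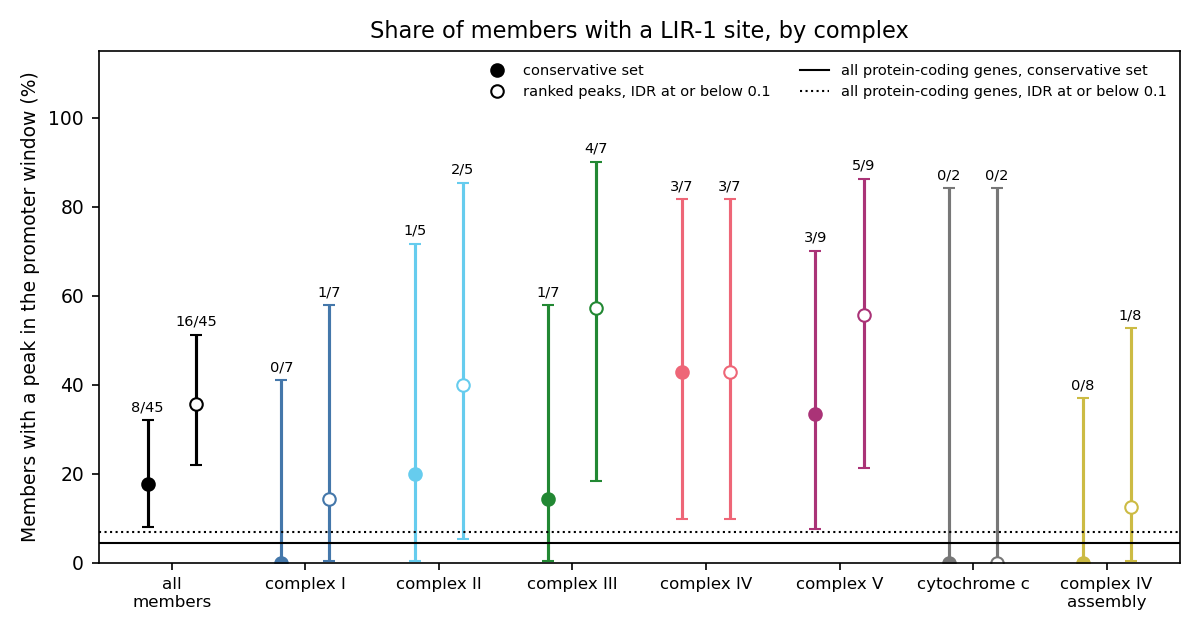
Share of members with a LIR-1 peak in the promoter window (y axis, percent) for all members and each group (x axis), with exact 95% binomial intervals and counts above. Filled points are sites of the conservative set and open points are ranked peaks with an IDR at or below 0.1, while the lines give the shares over all protein-coding genes, 4.42% (solid) and 6.91% (dotted). Complexes IV and V have the highest filled points, complex III moves to 4 of 7 at the looser threshold, and all intervals overlap.

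At the looser threshold the picture changed most for complex III. Ranked peaks with an IDR at or below 0.1 lay at 16 of 45 members, 35.6%, against 6.91% of all protein-coding genes. They added cyc-1, isp-1 and ucr-2.1 to complex III (4 of 7), atp-2 and asb-2 to complex V (5 of 9), sdha-1 to complex II (2 of 5), nuo-1 to complex I (1 of 7) and cox-16 to the assembly factors (1 of 8). Complex IV stayed at 3 of 7, so the looser threshold added no oxidase subunit at its annotated 5′ end. The genes ucr-2.1, asb-2 and cox-16 are named because their IDR passed 0.1 and were chosen after their values were seen.

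Any ranked peak at all, however weak, lay in the window of 31 members (68.9%), against 38.6% of all genes. The 23 members with a peak but no site had signals from 15.8 to 71.1 with a median of 44.6, against a median of 31.9 over the 6820 protein-coding genes in the same position. Their median IDR was 0.323, far above the limit of the conservative set, and 14 members had no ranked peak at all.

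**Figure D3:**
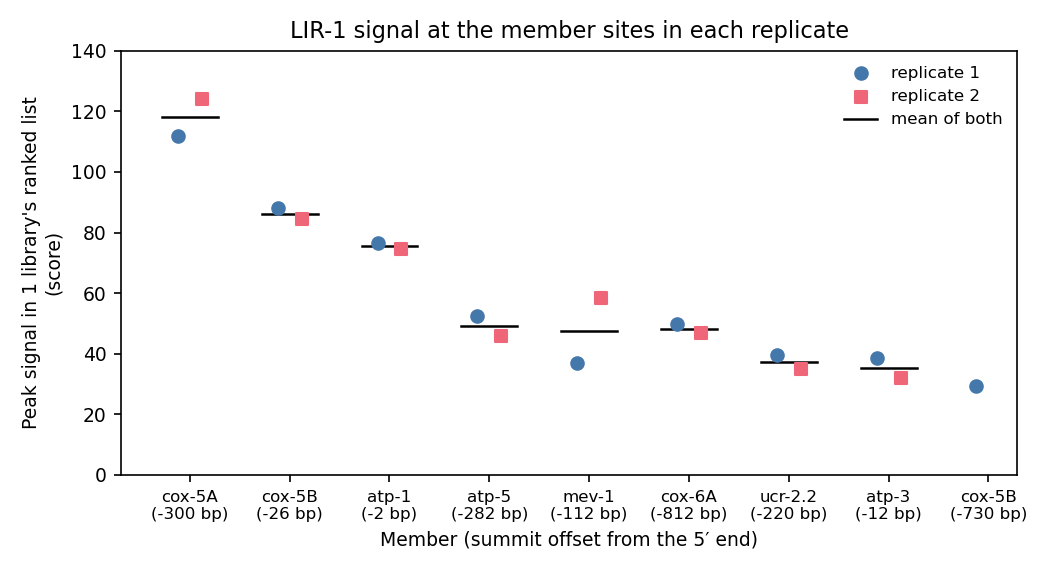
Signal of the 9 member sites in the ranked list of each library (y axis, score), ordered by the signal of both libraries together. Circles are replicate 1, squares replicate 2 and bars the mean of both. The genes cox-5A, cox-5B and atp-1 are highest in both replicates, mev-1 has the widest gap (36.8 and 58.3), and the weaker cox-5B site has no value in replicate 2.

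The order of the sites was much the same in both libraries at the top and less so below. The gene cox-5A, at 112 and 124, lay above cox-5B, at 88.1 and 84.4, and these lay above atp-1, at 76.7 and 74.5, with no overlap between neighbours. Below them, atp-5, mev-1 and cox-6A had means of 49.1, 47.5 and 48.3 and overlapping replicates. The sites of ucr-2.2 and atp-3, with means of 37.4 and 35.4, overlapped each other and lay below atp-5 and cox-6A in both replicates, with no overlap. The mev-1 values, 36.8 and 58.3, lay to either side of those of atp-5 and cox-6A and overlapped those of ucr-2.2 and atp-3.

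Many of the members' peaks lay within a narrow range of distances from the gene. In 13 of the 31 members with a ranked peak, 41.9%, the strongest summit lay from 350 to 200 bp upstream of the 5′ end, against 15.4% of the 7703 genes with one. Among peaks with an IDR at or below 0.1 it was 10 of 16 members, 62.5%, against 25.0% of 1368 genes. Those 10 were cox-5A, atp-5, ucr-2.2, cyc-1, isp-1, nuo-1, sdha-1, atp-2, ucr-2.1 and asb-2, from complexes I to V. For 4 of the 10 another protein-coding 5′ end was nearer to the summit: lmtr-3 for atp-5, islo-1 for isp-1, nmat-1 for ucr-2.1 and C34E10.10 for atp-2. For nuo-1 and sdha-1 the 5′ end of a noncoding gene was nearer, C09H10.11 at 1 bp and D2021.5 at 60 bp. The medians were close, -278 bp for the 16 members and -258 bp for the genes, but the middle 50% of members ran from -291 to -193 bp and that of the genes from -466 to -126 bp. The distance band was chosen after the positions were seen, so these shares describe the members and test nothing. Many worm genes are trans-spliced to a leader RNA, so an annotated 5′ end need not be where transcription starts.

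**Figure D4:**
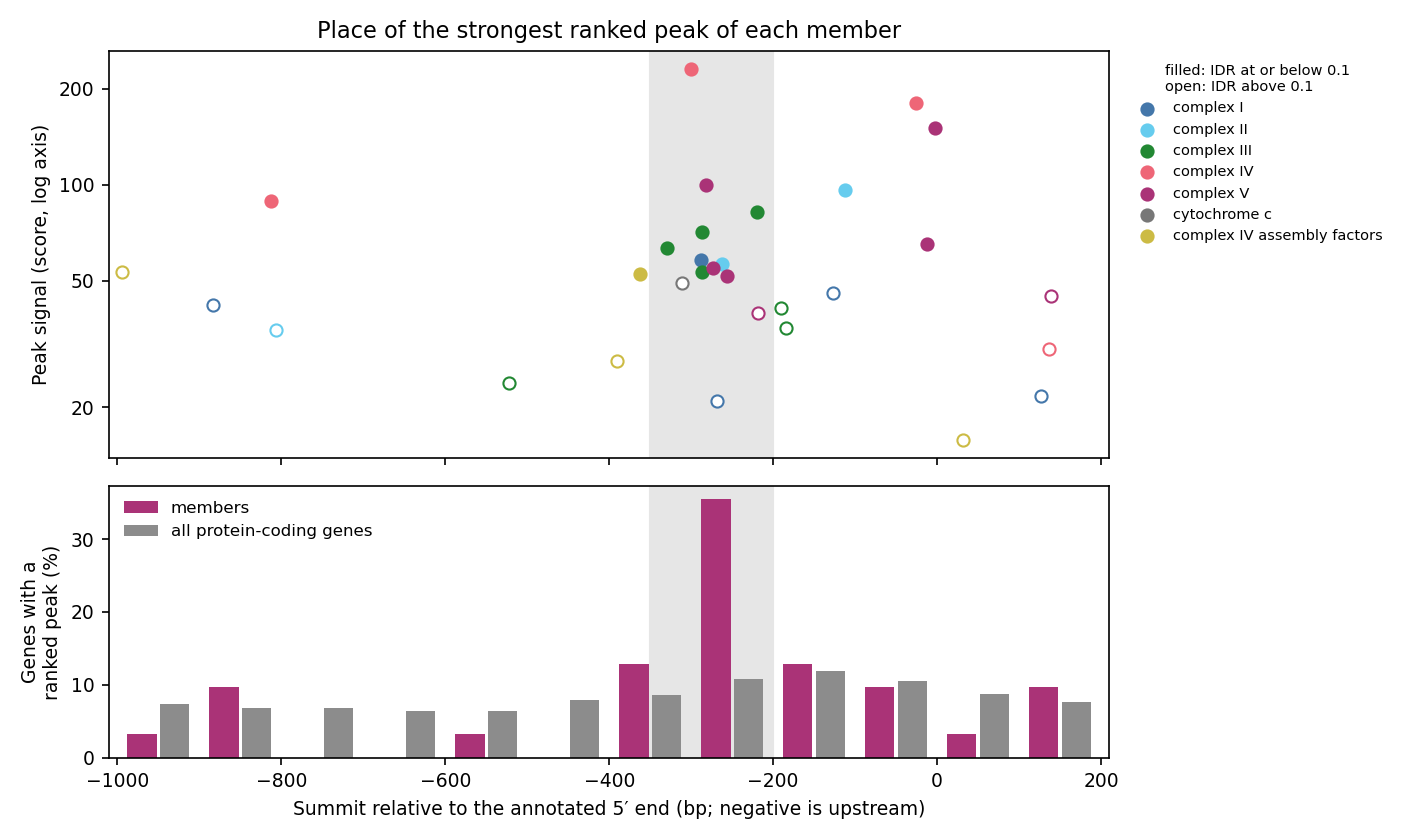
Upper panel: signal (log axis, score) of the strongest ranked peak of each of the 31 members against the place of its summit relative to the 5′ end (x axis, bp), filled where the IDR is at or below 0.1. Lower panel: percent of genes with a ranked peak whose strongest summit falls in each 100 bp bin, for members (left bars) and all protein-coding genes (right bars). The grey band from 350 to 200 bp upstream holds 13 members, 10 of them filled.

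Several member sites stood between divergent genes. Of the 9 member sites 5 also lay in the window of another protein-coding gene, 55.6%, against 36.7% of the 664 promoter sites (244). The neighbours were jmjd-4 for mev-1, tba-1 for the weaker cox-5B site, mcrs-1 for atp-1, F27C1.2 for atp-3 and lmtr-3 for atp-5. For these 5 the site cannot be given to the respiratory gene rather than to its neighbour. The sites of cox-5A, ucr-2.2 and cox-6A and the stronger site of cox-5B lay in no other protein-coding window.

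Other members lie inside runs of genes on the same strand, defined here by gaps of 500 bp or less. Worm genes so placed are often, but not always, transcribed together as an operon from a promoter before the first gene, and no operon annotation was used. Of 30 members that stood alone or first in a run, 7 had a site (23.3%), against 4.73% of all such genes. Of 15 members further along a run, ucr-2.2 alone had 1 of its own (6.67%), against 3.17%.

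For 6 of the 14 such members without a site of their own, 42.9%, the first gene of the run had one, against 9.19% of 3874 such genes. These were nuo-4 behind syf-2 (signal 142, 380 bp upstream of that first gene), ucr-11 behind dad-1 (129, 394 bp) and cyc-2.1, a cytochrome c gene, behind rpl-20 (306, 291 bp). The other 3 were assembly factors: cox-11 behind lin-54 (239, 356 bp), cox-15 behind rpn-9 (92.5, 238 bp) and cox-18 behind Y55F3AR.2 (259, 182 bp). The site before rpl-20 was higher than that of any member, and its summit lay 1057 bp upstream of cyc-2.1, just past the window. Together, 14 of 45 members (31.1%) had a site at their own 5′ end or at that of the first gene of their run, against 6.20% of all genes. In this count complex I and the assembly factors are no longer empty. The first genes of these runs have functions of their own, and a site before them counts for them first.

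Sequence under the member sites was rich in G and C for the worm. The median GC content of the stretches 50 bases to either side of the summit was 55.4% for the 9 member sites, 48.5% for all 1209 sites and 33.7% for like windows centred 100 bp upstream of all protein-coding 5′ ends. With 100 bases to either side it was 42.8%, 44.8% and 32.8%, so the members' lead over all sites was lost while that over the upstream windows remained. Of 8 motifs searched in the shorter windows on both strands, GAGACGC was in 2 of 9 member windows (mev-1 and ucr-2.2), against 9.76% of all sites and 1.77% of the upstream windows. GGGCGG was also in 2 of 9 (atp-1 and atp-3), against 6.12% and 3.40%. GAGAGAG was in 1, the weaker cox-5B site, against 9.26% and 2.86%.

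None of the other 5 motifs was in a member window. Over all sites the share was 5.54% for CACGTG, which is an E-box, 4.55% for TGATAA, 3.97% for the sequence TATAAA, 4.14% for the sequence TTCCCGC and 9.18% for the sequence CTGCGTC. At such shares fewer than 1 of 9 windows would hold any given motif, so these zeros carry little.

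The 6-mers that stood out under the 1200 sites of other genes and places, picked without the member sites, were GAGAGA with its shifted copy AGAGAG, the word ACGCAG, the word ACGCGC and the word GACGCA. The word ACGCGC was in 3 of 9 member windows (cox-5B, mev-1 and ucr-2.2) and in 14.5% of all sites, and GACGCA in 3 (cox-5A, mev-1 and ucr-2.2) and 14.8%. Nearer to the share of all sites, GAGAGA was in 2 of 9 member windows and 20.3% of all sites, its shifted copy in 2 and 18.1%, and the word ACGCAG in 1 and 15.7%. GAGACGC can overlap GACGCA, which can overlap ACGCAG, and the motif GAGAGAG holds both GAGAGA and its shifted copy, so these counts are not separate. A match describes the letters and does not show what contacts them.

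Further respiratory chain genes under other names were counted from a list of 18 genes found in the annotation, and 5 had a site (27.8%), against 4.42% of all genes. They were sco-1, which delivers copper to complex IV, with 161 at 214 bp upstream, nduf-2.2 with 113, nduf-11 with 82.5, Y82E9BR.3, the ATP synthase ring subunit, with 76.7 at 319 bp, and R53.4, a small ATP synthase subunit, with 74.8 at 448 bp. The last 3 are named after their values were seen, and nduf-2.2 and nduf-11 are also among the ndu- genes above. The gene sco-1 is thus an assembly factor of complex IV outside the cox- names with a site of its own.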

How the data were processed

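Peak lists on ce11 were deposited for each of 2 LIR-1 ChIP-seq libraries and for both together, per the labels. The aligner, caller and versions were not given in the sources used here. Signal is the deposited peak score, whose scaling was not stated, and it was used to describe and rank peaks within a list. The deposited ranked lists also hold −log10 of the global IDR, which was turned into IDR. A control alignment was not analysed here.

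Sites were placed by summit against Ensembl release 115 gene models (WBcel235, the same assembly as ce11), with Python 3.11.15, pandas 2.3.3, numpy 2.4.6 and scipy 1.17.1. Replicate signal is that of the strongest ranked peak of a library over the summit. Its mean ± SD is not on the scale of the combined signal. With 1 group there was no test between conditions, and no set test was made. Intervals cover counting error only, and replicates are as labelled. Members, lists and motifs were chosen with earlier results of these data known. By rule, named genes were all members with a site, the strongest member without 1 in each complex, well-studied members, and up to 2 genes per related list; the other members are named to account for each, and any further genes were named after their values were seen. The search was tested on simulated data. Alternatives were the other series set, stronger sites, a looser IDR, single replicates, other windows, any transcript start, nearest protein-coding gene and other gaps.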

Additional observations from a re-analysis of the deposited data

Results flagged for a closer look

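The mitochondrial chromosome, which encodes the subunits of complexes I, III, IV and V that are not in the nucleus, held 6 of the 834 peaks of replicate 1's own list, with signals from 19.3 to 58. It held 0 of the 580 peaks of replicate 2's list. The result was marked because these peaks lie outside the sets that the comparisons use, and no control library was analysed here to set them against. In the ranked list of both libraries 2 peaks lay there, with signals of 43.1 and 62.3 and a lowest IDR of 0.541, and the conservative set of 1209 sites had 0. The other ranked list of the series held 16, with signals from 5.51 to 68.5 and a lowest IDR of 0.0110. The ranked list of replicate 1 held 20, with a lowest IDR of 0.0000568, and that of replicate 2 held 2, with a lowest IDR of 0.687. In a list of a single library the IDR does not compare the 2 libraries, so a low value there does not show that they agree. Mitochondrial DNA is present in many copies in a cell, and whether copy number or read mapping plays a part was not tested.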

How the results depend on the processing

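Of 9 alternatives for the members with a site, 7 gave a count within 1.5 times of 8. The other set of the series, from the same libraries, gave 8. The stronger 50% of sites gave 6, without atp-3 and ucr-2.2, leaving complex III at 0. Replicate 1's list alone gave 6, with cyc-1 gained and atp-3, mev-1 and ucr-2.2 lost. The narrow window of 500 to 100 bp gave 7, without cox-6A. The wide one of 1500 to 500 bp gave 10, with cyc-2.1 and ucr-11 gained, so that complex III had 2 and cytochrome c 1. Any transcript start gave 9, and the nearest protein-coding 5′ end only gave 7, without atp-5. The looser IDR gave 16, with 1 in complex I, 2 in II, 4 in III, 5 in V and 1 assembly factor. Leaving out either replicate in turn gave 4 to 6 members, with 0 to 1 in complex II, 0 to 1 in III, 2 to 3 in IV and 1 to 2 in V; without replicate 1, atp-3, atp-5, cox-6A and ucr-2.2 were lost. The share of all genes ran from 2.39% to 6.91% over these settings. Of 8 motif counts 7 were alike in the longer windows, and TGATAA was in 2 of 9 there. A run gap of 1000 bp put 16 members in place of 15 inside runs. The other series ranked list gives the same signal at all 9 sites to 3 digits, so it is no separate measurement. Groups of 2 to 9 genes give intervals too wide to order the complexes. No paired analysis was possible because the series has 1 group.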

Other observations

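Other genes of mitochondrial function were counted by list, as a description with no test, beside 4.42% of all protein-coding genes with a site. Of 20 genes of the citric acid cycle and pyruvate dehydrogenase 3 had a site (15%): dld-1, the shared dehydrogenase subunit, with a signal of 123 at 274 bp upstream, aco-2, the mitochondrial aconitase, with 80.0 at 296 bp, and sucl-1. Of 15 protein import genes 2 had a site (13.3%), ddp-1 with 145 and tomm-20, a receptor of the outer membrane, with 121 at 268 bp upstream. Of 4 adenine nucleotide carrier genes ant-1.1 had one, with 155 at 49 bp upstream. Of 12 genes of mitochondrial stress and quality control 2 had a site (16.7%), the chaperones hsp-60, with 244 at 607 bp, and hsp-6, with 122 at 391 bp.

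The 8 genes of ubiquinone synthesis and the 5 genes of mitochondrial DNA upkeep had none, and none of either list had a ranked peak with an IDR at or below 0.1. The gene clk-1, the hydroxylase of ubiquinone synthesis, had a strongest peak of 29.2 with an IDR of 0.719. Of the 45 members 17.8% had a site, against 13 of 82 genes, 15.9%, over all the related lists, the respiratory genes under other names included. Of the 87 listed symbols 5 were not matched. The gene sucl-1 is named after its value was seen.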
